A study of Mus musculus with 64 samples.

Results

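White fat was one of 4 tissues sequenced in a mouse study of exercise training with and without the clock gene Bmal1 in skeletal muscle. The results below concern a single comparison, the difference between the training response of muscle Bmal1 knockout mice and that of vehicle-treated controls. It uses 12 of the 64 libraries of the series, 3 in each of 4 groups: sedentary vehicle, trained vehicle, sedentary knockout and trained knockout. All 12 animals carried the genotype Cre+:iMSBmal1 fl/fl, a floxed Bmal1 allele with a Cre recombinase described as specific to muscle, and the labels call one pair of groups vehicle and the other iMSBMal1KO. An agent used to induce the deletion and the deletion itself therefore cannot be told apart. Trained mice ran on a treadmill daily for 6 weeks, sedentary mice did not, and fat was taken 48 hours after the last bout. Age and time of day of collection are not given in the sources used here. That the 3 libraries of a group are separate animals is read from the labels alone, so p-values measure the spread between these libraries.

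BMAL1, listed as Arntl, pairs with CLOCK to drive rhythmic genes through E-box sites, and its targets, the period and cryptochrome proteins, in turn repress the pair. Adipocytes carry such a clock of their own, which stays genetically intact when only muscle loses Bmal1. White fat stores triglyceride in lipid droplets and releases fatty acids on catecholamine signals, a release that insulin restrains, and endurance training is known to act on these functions as well as on fat macrophages. The comparison asks whether the response of fat to training differs when the clock of muscle is missing. For each gene the interaction is the log2 training change (trained minus sedentary) in knockout mice minus that in vehicle mice. A positive interaction means a response that was higher in knockout mice, and levels are in CPM, estimated reads per megaread of the library after scaling.

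Depth was 18.97 to 31.17 M estimated reads (megareads) per library. Adipocyte-defining genes (Adipoq, Plin1, Cidec, Lep and Fabp4) summed to 10900 CPM or more in each library, while the brown-fat gene Ucp1 did not exceed 0.991 CPM. Libraries of 2 kinds stood apart. The library labelled trained knockout 2 had the lowest median rank correlation with the others, 0.966 against 0.976 to 0.989, and its 17 liver-defining genes summed to 3390 CPM against 8.58 to 447 in the other 11. In trained vehicle replicates 1, 2 and 3 the 11 naive B-cell genes summed to 218, 48.8 and 105 CPM, against 20.7 to 33.6 CPM in the other 9 libraries. Whether these transcripts came from other tissue in the dissected piece was not tested.

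**Figure D1:**
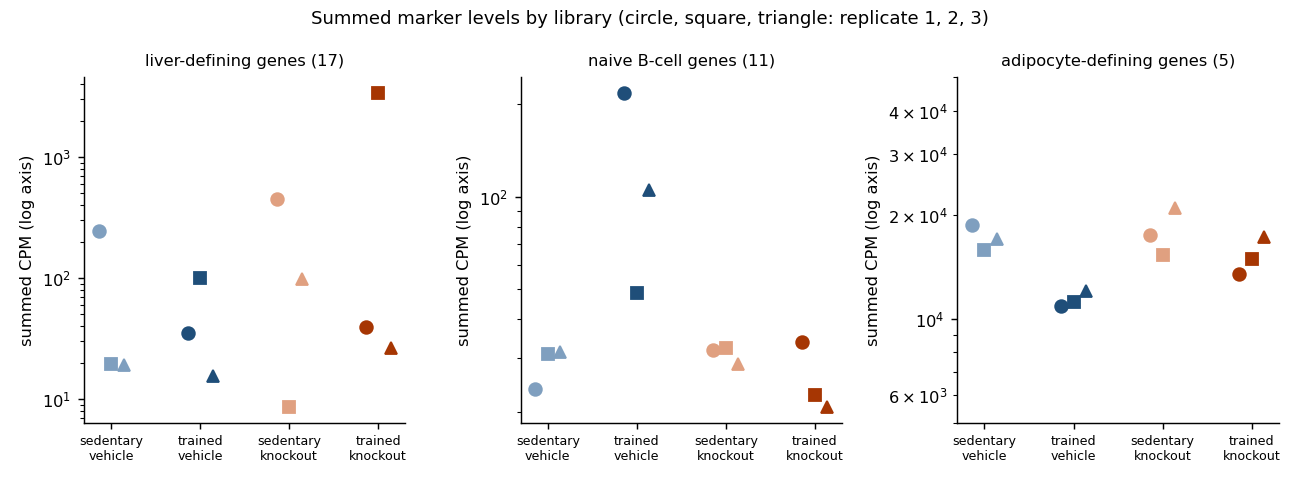
Summed CPM (log axis) of genes defining liver, naive B cells and adipocytes in each of the 12 libraries, by group; each symbol is 1 library. Trained knockout 2 is highest in liver genes at 3390 CPM, trained vehicle 1 is highest in B-cell genes at 218 CPM, and adipocyte genes are lowest in the trained vehicle libraries at 10900 to 12000 CPM.

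No gene passed the test of the interaction at an adjusted p under 0.05: edgeR's quasi-likelihood test with Benjamini-Hochberg adjustment called 0 of 15448 genes tested, or 0% of them. The smallest adjusted p was 0.0503, and 131 genes lay under 0.12. At an unadjusted p under 0.05 there were 2848 genes, 1146 with a positive interaction (7.42% of those tested) and 1702 with a negative one (11%). The balance of signs rested on single libraries: it was 1235 positive and 938 negative without trained knockout replicate 2, 1207 and 868 without trained knockout replicate 3, and 1418 and 1170 without sedentary vehicle replicate 3. The negative share of genes tested was 5.99%, 5.52% and 7.43% in those 3 fits. The count depended on the method, since DESeq2 called 724 genes (366 positive and 358 negative) and limma voom called 0. It also depended on 1 library, since edgeR without trained knockout replicate 1 called 472 genes, 211 positive and 261 negative. Genes below are therefore described by their values and are not claimed as changed. Training alone gave 0 called genes in vehicle mice and 0 in knockout mice, with 2785 and 2516 genes at an unadjusted p under 0.05.

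Most genes at an unadjusted p under 0.05 had training changes that pointed in opposite directions in vehicle and knockout mice. Of these 2848 genes, 2609 had training estimates of opposite sign, against 52% of all genes tested. A small interaction p selects a wide gap between the 2 training estimates and so favours opposite signs by itself, and these counts are a description only. Of the 1146 positive ones, 1040 were below the sedentary level in trained vehicle mice and above it in trained knockout mice, 54 were above it in both and 52 below it in both. Of the 1702 negative ones, 1569 were above the sedentary level in vehicle mice and below it in knockout mice. A stricter reading asks that the trained and sedentary libraries do not overlap in either vehicle or knockout mice. By that rule 141 genes (0.913% of those tested) were lower with training in vehicle mice and higher in knockout mice, and 185 genes (1.20%) showed the opposite. Across the 15448 genes the training changes of vehicle and knockout mice, which share no libraries, had a Pearson correlation of -0.18. It is given as a description since genes are not independent.

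**Figure D2:**
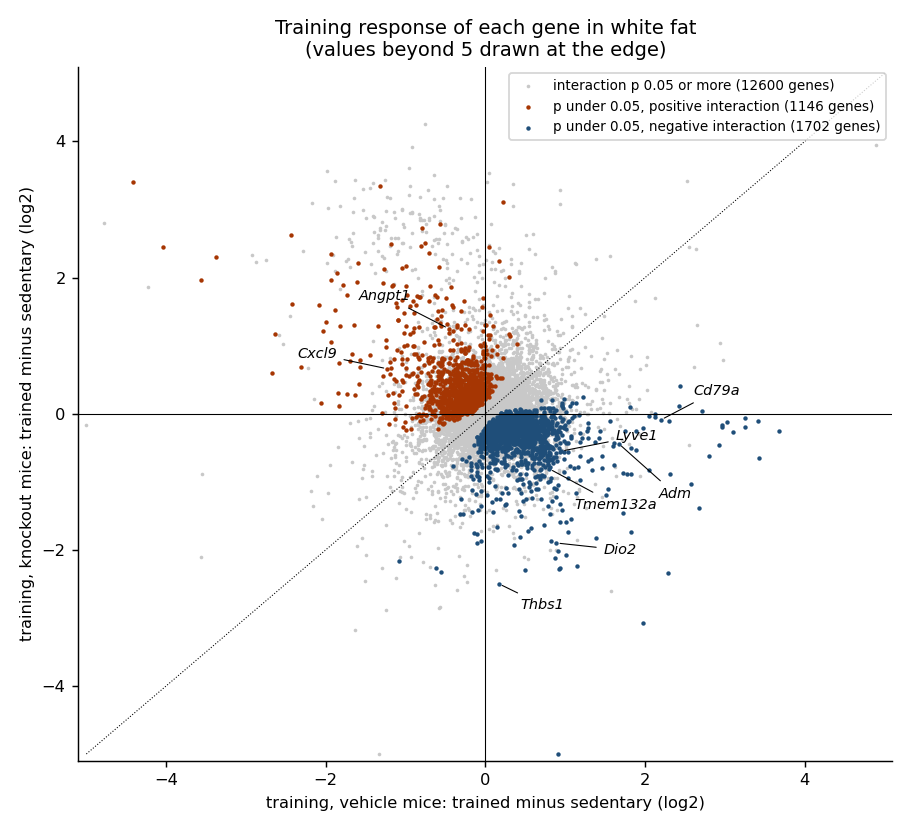
Training change of each of 15448 genes (log2, trained minus sedentary) in vehicle mice on the horizontal axis and in knockout mice on the vertical axis; colour marks an unadjusted interaction p under 0.05 and the dotted line equal responses. The 1146 positive genes lie mostly in the upper left and the 1702 negative genes mostly in the lower right. In both corners the direction differs between vehicle and knockout mice.

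The smallest p-values belonged to genes that were higher after training in vehicle mice and lower after training in knockout mice. Tmem132a, a transmembrane protein known to bind the chaperone BiP, lies on chromosome 19 from 10835193 to 10847144 on the minus strand in the coordinates of the deposited table, which match GRCm39. It stood at 15, 15.3 and 18.2 CPM in sedentary vehicle fat and 27.8, 31.3 and 25.1 CPM in trained vehicle fat (replicates 1 to 3). In knockout fat it stood at 23.6, 21.2 and 28.1 CPM when sedentary and 14.8, 12.2 and 14.5 CPM when trained. Trained and sedentary libraries did not overlap in either vehicle or knockout mice, and the order of the groups was reversed. The interaction was -1.61 (SE 0.19), with an unadjusted p of 3.25e-06 and an adjusted p of 0.0503 by edgeR with Benjamini-Hochberg adjustment. Over 21 alternative settings the interaction ran from -1.70 to -1.18 and its adjusted p from 2.83e-10 to 0.371, under 0.05 in 4 of them.

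Lyve1 encodes the hyaluronan receptor of lymphatic endothelium, which some resident macrophages also carry (chromosome 7, 110449814 to 110462161, minus strand). Its levels were 70.9, 69.5 and 63.8 CPM in sedentary vehicle fat and 134, 129 and 132 CPM in trained vehicle fat. Knockout fat held 61.5, 81.3 and 98.9 CPM when sedentary and 57.8, 51.8 and 55.3 CPM when trained. The 3 trained vehicle libraries lay well above the other 9, and the trained knockout libraries were the lowest of all. The interaction of -1.50 (SE 0.19) had an adjusted p of 0.0555 by edgeR with Benjamini-Hochberg adjustment, and 9.09e-09 to 0.371 over the alternatives, 5 of 21 under 0.05. Rassf3, a Ras-association domain protein (chromosome 10, 121246256 to 121312156, minus strand), had an interaction of -0.93 (SE 0.12) and an adjusted p of 0.0618 in the same test. It measured 62.6, 52.6 and 66.6 CPM in sedentary and 77.5, 79.1 and 74.8 CPM in trained vehicle fat, and 86.0, 76.6 and 78.3 CPM in sedentary and 56.0, 54.5 and 50.4 CPM in trained knockout fat. Both training steps were free of overlap and ran in opposite directions.

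The other 9 negative genes named by smallest p shared an adjusted p of 0.119. Adm, the vasodilator peptide adrenomedullin, had an interaction of -2.11 (SE 0.37). It stood at 8.0, 9.96 and 12.7 CPM in sedentary vehicle fat and 24.4, 40.6 and 32.7 CPM in trained vehicle fat. In knockout fat it was 11.3, 18.6 and 14.7 CPM when sedentary and 13.1, 7.77 and 11.9 CPM when trained, ranges that overlap, so only the vehicle groups were apart. Hmcn1, the extracellular matrix protein hemicentin, had the largest negative value of the 12, at -2.68 (SE 0.50). Its trained vehicle libraries held 15.3, 38.7 and 26.8 CPM against 5.79 to 10.8 CPM in sedentary vehicle fat, and its trained knockout libraries 4.71 to 9.02 CPM against 10.5 to 13.8 CPM. Dennd4a, an exchange factor for Rab GTPases, was -0.91 (SE 0.14). Atp8a1, a phospholipid flippase, was -0.96 (SE 0.17), and Ppfibp2, a liprin scaffold protein, was -1.14 (SE 0.21). Tnfaip8, a regulator of cell death, Fam107b and Fam111a ranged from -0.84 to -0.53.

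The 12 positive genes named by smallest p were low in sedentary knockout fat. Angpt1, the ligand of the endothelial receptor Tie2 (chromosome 15, 42288063 to 42540374, minus strand), stood at 38.0, 29.6 and 25.6 CPM in sedentary and 19.2, 23.2 and 25.4 CPM in trained vehicle fat. In knockout fat it was 13.8, 10.9 and 8.30 CPM when sedentary and 20.4, 24.8 and 33.0 CPM when trained. The sedentary knockout libraries were the lowest of the 12, and the trained knockout libraries overlapped both vehicle groups. The interaction was 1.70 (SE 0.32; edgeR adjusted p 0.119 by Benjamini-Hochberg).

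Among the other positive genes, Fdft1, squalene synthase of the sterol pathway, was 101, 83.7 and 92.0 CPM in sedentary and 73.1, 70.5 and 70.9 CPM in trained vehicle fat. Knockout fat held 71.8, 69.9 and 65.6 CPM when sedentary and 76.9, 88.2 and 92.2 CPM when trained, for an interaction of 0.68 (SE 0.12). Trmu, which thiolates mitochondrial transfer RNA, had 0.88 (SE 0.16), and Fmc1, an assembly factor of the mitochondrial ATP synthase, had 1.04 (SE 0.20). Slc1a3, a glutamate transporter, had 1.19 (SE 0.21) and Podn, a small leucine-rich proteoglycan, 0.90 (SE 0.17), while Pcsk4, a proprotein convertase, had 1.39 (SE 0.26). Echdc2, Rhbdl1, Dennd2d and Wdsub1 ranged from 0.50 to 1.07. For all 12 positive genes the 3 sedentary knockout libraries lay below the 3 sedentary vehicle libraries. For 11 of the 12 the trained knockout libraries overlapped the sedentary vehicle range, Pcsk4 being the exception. Against trained vehicle libraries they overlapped for 7 of the 12 and lay above for 5. For the 12 negative genes the picture was less even: sedentary knockout libraries lay above sedentary vehicle libraries for 6 and overlapped them for 6, and trained knockout libraries lay below trained vehicle libraries for 12 of 12. These orders are descriptions, because the 24 genes were ranked by the interaction itself.

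**Figure D3:**
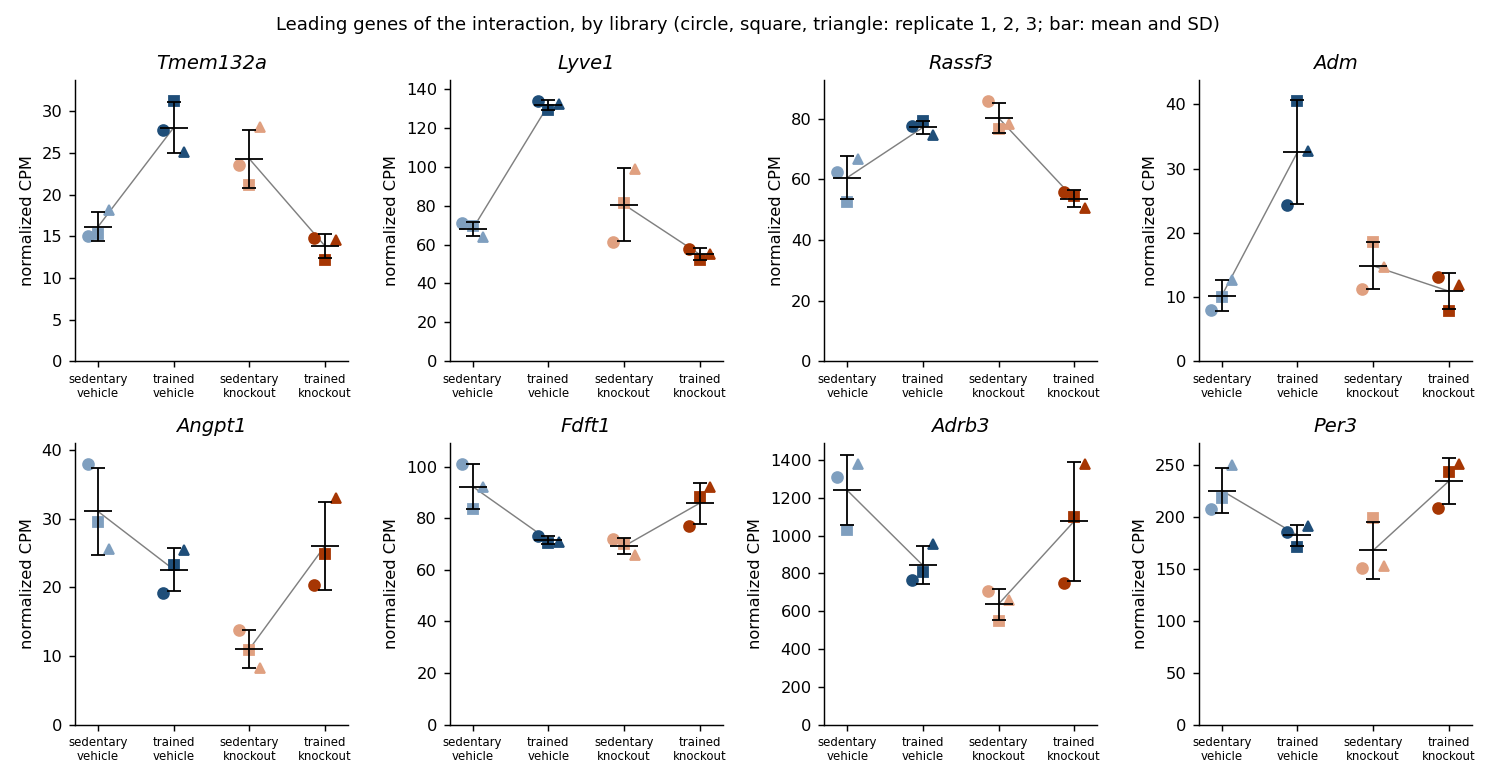
Normalized CPM of 8 genes in each library of the 4 groups. Symbols are replicates, bars the mean and SD, and grey lines join sedentary to trained means within vehicle or knockout mice. Tmem132a, Lyve1 and Rassf3 step up in vehicle and down in knockout mice, Adm steps up in vehicle mice with overlapping knockout groups, and Angpt1, Fdft1, Adrb3 and Per3 step down in vehicle and up in knockout mice.

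Arntl itself was low in fat and served as no check of the knockout, since the gene is removed in muscle only. It stood at 1.36, 1.46 and 1.90 CPM in sedentary vehicle, 2.97, 2.64 and 1.74 CPM in trained vehicle, 1.25, 3.03 and 2.03 CPM in sedentary knockout and 2.08, 2.49 and 1.85 CPM in trained knockout fat. The 4 groups overlapped, and the interaction of -0.61 (SE 0.47) had an adjusted p of 0.501 by edgeR with Benjamini-Hochberg adjustment. Of 20 clock and clock-output genes tested, 5 had a positive and 1 a negative interaction at an unadjusted p under 0.05, against 7.42% and 11% of all genes, with a median of 0.14 against -0.03 over all genes tested. Leaving out single libraries gave 5 or 6 positive and 0 to 2 negative members and a median of 0.08 (without sedentary vehicle 3, trained vehicle 2 or sedentary knockout 1) to 0.21. Among the 5 were Per3, Tef, Dbp and Hlf, and the negative one was Clock at -0.50 (SE 0.20). Per3, a period family member, measured 208, 218 and 250 CPM in sedentary and 185, 171 and 191 CPM in trained vehicle fat, then 151, 199 and 153 CPM in sedentary and 209, 243 and 251 CPM in trained knockout fat. Its interaction was 0.79 (SE 0.17) and both training steps were free of overlap in opposite directions, as they were for Tef at 0.46 (SE 0.13). Tef, Dbp and Hlf are the transcription factors of the PAR bZIP family, whose rhythmic output acts through D-box sites. Dbp had 0.66 (SE 0.21) and Hlf 0.46 (SE 0.15). The repressors Per1 and Per2 had interactions of 0.15 (SE 0.20) and 0.15 (SE 0.13), and Cry1 had -0.12 (SE 0.17).

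Promoters of Per3 and Tef are shown for 2 reasons. These were the 2 clock genes with training steps free of overlap and opposite in vehicle and knockout mice, and each carries a clock motif. They come from RefSeq on GRCm38.p6 and run from 250 bases before to 50 bases after a gene start, 5′ to 3′, with D-box letters TTATGTAA or E-box letters CACGTG, searched on both strands, in capitals.
Per3, chr4:151044616-151044915, minus strand: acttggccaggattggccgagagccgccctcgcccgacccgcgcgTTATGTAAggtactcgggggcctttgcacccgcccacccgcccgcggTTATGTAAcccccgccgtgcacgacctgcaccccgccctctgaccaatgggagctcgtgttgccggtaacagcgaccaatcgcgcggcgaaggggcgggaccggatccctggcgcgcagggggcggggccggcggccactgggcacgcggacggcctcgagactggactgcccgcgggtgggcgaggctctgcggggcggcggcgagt
Tef, first start, chr15:81802423-81802722, plus strand: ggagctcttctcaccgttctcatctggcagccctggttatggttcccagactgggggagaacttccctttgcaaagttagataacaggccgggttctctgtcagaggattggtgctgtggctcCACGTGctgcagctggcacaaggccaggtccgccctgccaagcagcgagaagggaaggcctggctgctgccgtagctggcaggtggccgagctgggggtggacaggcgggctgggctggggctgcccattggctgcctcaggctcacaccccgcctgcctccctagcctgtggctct
Tef, second start, chr15:81811164-81811463, plus strand: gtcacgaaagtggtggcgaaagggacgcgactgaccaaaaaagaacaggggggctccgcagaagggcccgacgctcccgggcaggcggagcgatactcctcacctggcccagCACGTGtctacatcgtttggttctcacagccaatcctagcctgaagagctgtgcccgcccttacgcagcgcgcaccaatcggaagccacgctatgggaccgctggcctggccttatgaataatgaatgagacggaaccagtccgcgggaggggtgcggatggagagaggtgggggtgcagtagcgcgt
The 8 letters of the D-box occur in 308 of 32851 promoters of this table, or 0.938%, and the 6 letters of the E-box in 2349, or 7.15%. Of 24 promoters for the 17 clock-list genes with an entry, 6 hold the E-box letters and 1, that of Per3, the D-box letters. The 2 motifs do not overlap in these windows, and a match of letters is a description and not a binding site.

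Most genes of the adipocyte itself had a positive interaction estimate, 21 of 25 against 46.9% of all genes. This and the other gene lists were chosen with earlier results of these data known. Members of a list are not independent, so list counts are descriptions. Of 25 adipocyte identity and lipid droplet genes tested, 12 had a positive interaction at an unadjusted p under 0.05 and 0 a negative one, against 7.42% and 11% of all genes. The median was 0.49, made of a median training change of -0.38 in vehicle mice and 0.07 in knockout mice, and 24 of the 25 had a negative estimate in vehicle mice. Adrb3, the adipocyte beta-adrenergic receptor that starts lipolysis, led the list at 1.31 (SE 0.29; edgeR adjusted p 0.119 by Benjamini-Hochberg). It measured 1310, 1030 and 1380 CPM in sedentary and 765, 807 and 957 CPM in trained vehicle fat, then 708, 548 and 657 CPM in sedentary and 750, 1100 and 1380 CPM in trained knockout fat. Sedentary knockout libraries were again the lowest, and the trained steps ran in opposite directions without overlap. The droplet coat Plin1 had 0.60 (SE 0.17), the lipases Lipe and Pnpla2 had 0.58 (SE 0.17) and 0.65 (SE 0.20), and the secreted protease adipsin, Cfd, had 1.0 (SE 0.29). For Plin1 the trained vehicle libraries, at 1480 to 1540 CPM, lay below every other library, which ranged from 1720 to 2410 CPM. The hormones differed from this pattern: Adipoq had 0.24 (SE 0.23), and Lep had -0.39 (SE 0.29), with negative training estimates in both vehicle and knockout mice. Leaving out single libraries gave 10 to 13 positive members and a median of 0.35 to 0.59.

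Oxidative metabolism showed the same direction with small, even values. All 42 nuclear-encoded oxidative phosphorylation genes tested had a positive interaction estimate, against 46.9% of all genes. All 42 had a negative training estimate in vehicle mice, and 29 had a positive one in knockout mice. At an unadjusted p under 0.05 there were 19 positive and 0 negative, against 7.42% and 11% of all genes. The median was 0.31, with -0.25 in vehicle and 0.05 in knockout mice. Ndufb8, a subunit of respiratory complex I, stood at 169, 148 and 141 CPM in sedentary and 110, 112 and 122 CPM in trained vehicle fat, then 146, 135 and 136 CPM in sedentary and 137, 140 and 163 CPM in trained knockout fat. The trained vehicle libraries alone stood low, and the interaction was 0.49 (SE 0.13). Trained vehicle libraries lay below sedentary ones without overlap for 33 of the 42 genes, but in knockout mice only 1 gene had trained libraries above the sedentary range. The share of all genes with such ranges was not counted. The count of 19 rests on single libraries: it was 6 without sedentary vehicle replicate 1 and 7 without trained vehicle replicate 1. It was 8 without sedentary knockout replicate 2, and the median stayed between 0.23 and 0.42 over the libraries left out.

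Fatty acid oxidation followed, with 8 of 22 genes positive and 0 negative at an unadjusted p under 0.05 and a median of 0.34. The shares over all genes were 7.42% positive and 11% negative, here and for the other lists of this paragraph. Acadvl and Acads, dehydrogenases of beta-oxidation, had 0.45 (SE 0.12) and 0.46 (SE 0.13), and Cpt2, which completes fatty acid import into mitochondria, had 0.63 (SE 0.20). Trained vehicle libraries lay below sedentary ones for 16 of the 22, and in knockout mice the trained range was above the sedentary one for 0 of them. The share of all genes with such ranges was not counted. The count of 8 became 5 without sedentary vehicle replicate 1, trained vehicle replicate 1, trained vehicle replicate 2 or sedentary knockout replicate 2. Fatty acid and triglyceride synthesis had 7 of 24 positive and 0 negative (median 0.30), led by Acacb, the acetyl-CoA carboxylase of the mitochondrial surface, at 1.54 (SE 0.38). Acacb measured 397, 271 and 350 CPM in sedentary and 172, 147 and 301 CPM in trained vehicle fat, then 140, 127 and 128 CPM in sedentary and 160, 279 and 261 CPM in trained knockout fat, so the knockout groups were apart and the vehicle groups overlapped. The lipogenic regulators Srebf1 and Mlxipl had 0.80 (SE 0.26) and 0.86 (SE 0.36). The count of 7 was 4 without sedentary vehicle replicate 1 or 2, trained vehicle replicate 1 or trained knockout replicate 2. Without sedentary knockout replicate 2 the median was 0.13, with 3 negative members. Of the 24 estimates, 16 were positive and 8 negative. The summed level of the 24 genes was 33400 to 41800 CPM in sedentary and 29000 to 33700 CPM in trained vehicle fat. In knockout fat the sum was lower with training without overlap, at 38800 to 49600 CPM when sedentary and 33800 to 37100 CPM when trained. Insulin and growth hormone response genes had 8 of 21 positive and 0 negative (median 0.28), among them the kinase Akt2 at 0.56 (SE 0.20) and the receptor substrates Irs1 and Irs2 at 0.55 (SE 0.23) and 0.44 (SE 0.19). Without sedentary knockout replicate 1 it was 4, and without sedentary vehicle replicate 1 or trained knockout replicate 3 it was 5. Sterol genes (2 of 20 positive and 1 negative) and glycolysis genes (0 of 21 positive and 3 negative) had medians of -0.16 and -0.06, and Hk1, which starts glycolysis, had -0.53 (SE 0.13). Both medians changed sign with single libraries, the sterol one from -0.28 without sedentary knockout 2 to 0.03 without sedentary knockout 3. The glycolysis median was -0.19 with 6 negative members without sedentary knockout 2, and 0.01 to 0.04 without sedentary vehicle 3, sedentary knockout 3 or trained knockout 2 or 3.

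The thermogenic list held few members at an unadjusted p under 0.05, and its shares were near those of all genes. Of 18 tested, 2 were positive (11.1%) and 1 negative (5.56%) at an unadjusted p under 0.05, against 7.42% and 11% of all genes. The median was 0.48. Leaving out single libraries gave 1 to 4 positive members and a median of 0.19 (without sedentary vehicle 1) to 0.64 (without sedentary vehicle 3). Ebf2, a transcription factor of beige and brown adipocytes, had 0.67 (SE 0.16) and the coactivator Ppargc1a 0.69 (SE 0.31). Dio2, the deiodinase that activates thyroid hormone, had -2.79 (SE 0.78), at 8.10, 2.67 and 5.48 CPM in sedentary and 10.1, 10 and 9.85 CPM in trained vehicle fat, then 13.9, 4.90 and 2.57 CPM in sedentary and 2.03, 1.24 and 2.40 CPM in trained knockout fat. Its levels were low throughout, and 1 sedentary knockout library, replicate 1, carried much of that group's mean.

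Of 23 endothelial and angiogenic genes, 22 had a positive estimate, against 46.9% of all genes, and the median was 0.46. At an unadjusted p under 0.05 there were 5 positive (21.7%) and 0 negative, against 7.42% and 11% of all genes. Beside Angpt1 these were Vegfb at 0.59 (SE 0.16), the nitric oxide synthase Nos3 at 0.98 (SE 0.32), and the endothelial membrane genes Plvap at 1.09 (SE 0.38) and Ackr1 at 1.21 (SE 0.48). The lymphatic gene Lyve1, given above, had a negative interaction. The count of 5 was 12 without sedentary vehicle replicate 1 and 11 without trained knockout replicate 1, with medians of 0.36 to 0.66 over the libraries left out, and DESeq2 gave 9. Smooth muscle and pericyte genes had 3 of 12 positive (25%) and 0 negative, against the same shares of all genes, with a median of 0.51. They were led by the contractile genes Lmod1 at 1.66 (SE 0.35), Myh11 at 1.51 (SE 0.43) and Cnn1 at 2.21 (SE 0.86). In Myh11 the sedentary vehicle libraries were spread from 28.6 to 73.0 CPM, with replicate 2 highest. The list median was 0.28 without sedentary knockout 1 and 0.87 without sedentary knockout 2, and 2 to 5 members were positive when single libraries were left out.

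**Figure D4:**
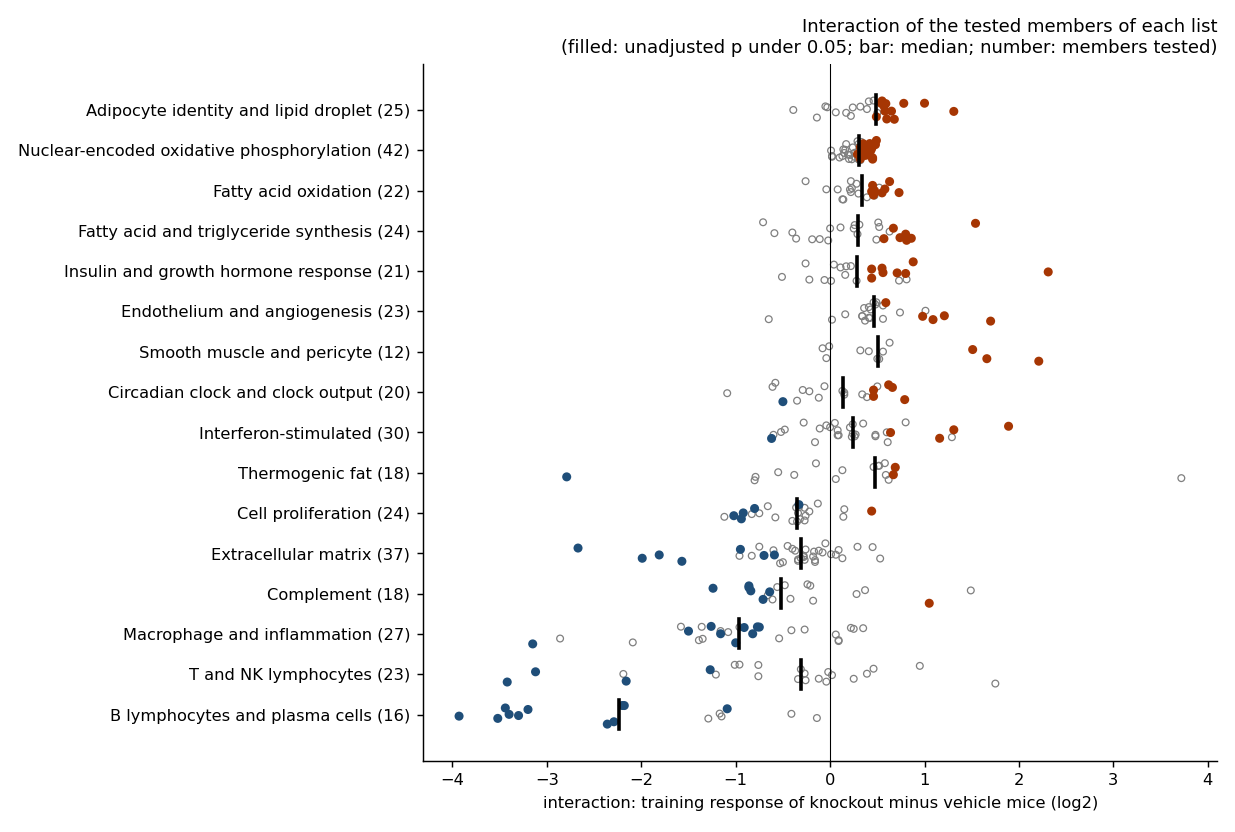
Interaction (log2) of each tested member of 16 gene lists; filled points have an unadjusted p under 0.05 and black bars are list medians. Adipocyte and oxidative lists centre right of 0 with medians of 0.49 and 0.31, and macrophage and B-cell lists left of it with medians of -0.96 and -2.24.

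Most macrophage and complement genes had a negative estimate (21 of 27 and 14 of 18), while 46.9% of all genes had a positive one. Of 27 macrophage and inflammation genes tested, 9 had a negative interaction at an unadjusted p under 0.05 and 0 a positive one, against 11% and 7.42% of all genes, and the median was -0.96. Median training changes were 0.73 in vehicle and -0.19 in knockout mice. Csf1r, the receptor that keeps macrophages alive, measured 248, 210 and 276 CPM in sedentary and 377, 434 and 344 CPM in trained vehicle fat, then 252, 267 and 222 CPM in sedentary and 285, 218 and 179 CPM in trained knockout fat. The trained vehicle libraries stood above the other 9 and the knockout groups overlapped, for an interaction of -0.77 (SE 0.23). The same layout held for Adgre1 at -1.0 (SE 0.29), Mrc1, a marker of tissue-resident macrophages, at -0.82 (SE 0.24), the chemokine Ccl6 at -0.91 (SE 0.25) and Lyz2, lysozyme, at -1.16 (SE 0.38). For 15 of the 27 genes trained vehicle libraries lay above sedentary ones, and in knockout mice trained and sedentary libraries overlapped for every one. The share of all genes with such ranges was not counted. Leaving out single libraries gave 7 to 12 negative members and a median of -1.06 to -0.66. The summed level of the macrophage list had another layout. It was 12000 to 17000 CPM in sedentary and 16100 to 17800 CPM in trained vehicle fat, ranges that overlap. In knockout fat it was 14900 to 17600 CPM when sedentary and 10900 to 13500 CPM when trained, without overlap. Complement had 6 of 18 negative (33.3%) and 1 positive (5.56%), against the same shares of all genes. Its median of -0.52 became -0.24 without trained knockout 3 and -0.34 without sedentary knockout 3. The 3 chains of C1q had like values. C1qc was 225, 229 and 243 CPM in sedentary and 397, 452 and 342 CPM in trained vehicle fat, then 229, 243 and 227 CPM in sedentary and 258, 230 and 170 CPM in trained knockout fat, at -0.86 (SE 0.20). C1qa had -0.71 (SE 0.18) and C1qb -0.84 (SE 0.22), and the positive member was the terminal component C6 at 1.05 (SE 0.38). In bulk tissue, more cells of a type and more RNA per cell cannot be told apart, and the summed adipocyte-defining genes were lowest in the same trained vehicle libraries, at 10900 to 12000 CPM against 13500 to 20900 CPM in the other 9. The part of this in the macrophage and adipocyte values was not tested.

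B-cell genes had the most negative median of the 35 lists, and their values rested on few libraries. While 46.9% of all genes had a positive estimate, all 16 B lymphocyte and plasma cell genes tested had a negative one (median -2.24). At an unadjusted p under 0.05 there were 11 of them (68.8%), against 11% of all genes. That count depended on the method, since limma voom gave 2 of 16 and a median of -1.77. For 9 of the 16 the trained vehicle libraries lay above the sedentary ones without overlap, and the share of all genes with such ranges was not counted. Cd79a, a signalling chain of the B-cell receptor that is shown as an example chosen after its values were seen, was 3.69, 5.27 and 4.99 CPM in sedentary and 41.1, 5.41 and 17.9 CPM in trained vehicle fat, then 4.96, 5.61 and 6.54 CPM in sedentary and 5.19, 6.42 and 4.48 CPM in trained knockout fat. Trained vehicle replicates 1 and 3 were high and replicate 2 lay within the range of the knockout libraries, for an interaction of -2.29 (SE 0.75). Without trained vehicle replicate 1 the median was -1.39 and 9 members had an unadjusted p under 0.05, and without that library and trained knockout 2 together 5 did. T and NK lymphocyte genes had 4 of 23 negative (17.4%, against 11% of all genes) and 0 positive, with a median of -0.31 that became 0.20 without trained vehicle replicate 1 and -0.73 without sedentary vehicle replicate 2. Among the 4 were Ccr7, a homing receptor of naive lymphocytes, Cd28 and Il7r, and Cd3e, a defining T-cell gene, had -0.04 (SE 0.71). The count was 2 without trained vehicle 1, trained knockout 2 or 3, sedentary vehicle 3 or sedentary knockout 2, and 2 by limma voom.

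**Figure D5:**
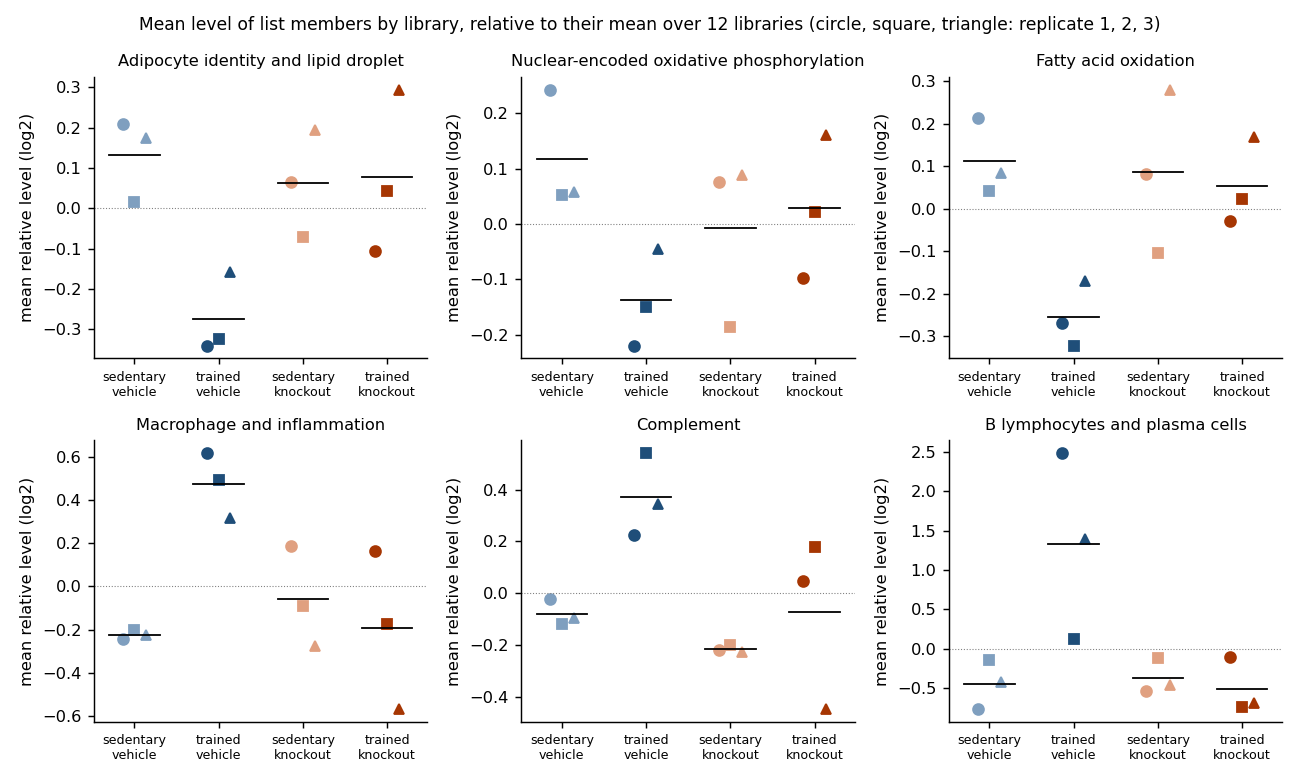
Mean log2 level of the tested members of 6 lists in each library, relative to their mean over the 12 libraries (symbols are replicates, lines group means). Trained vehicle libraries are lowest for adipocyte genes at -0.34, -0.323 and -0.158 and highest for macrophage genes at 0.617, 0.492 and 0.318, and B-cell genes are highest in trained vehicle 1 and 3 at 2.48 and 1.40, followed by trained vehicle 2 at 0.127.

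Interferon-stimulated genes had 4 of 30 positive and 1 negative, against 7.42% and 11% of all genes, and a median of 0.24 that changed sign to -0.28 without sedentary vehicle 2 and was 0.49 without trained vehicle 2. Cxcl9, a chemokine that draws T cells, led at 1.89 (SE 0.39) and was 48.7, 117 and 67.9 CPM in sedentary and 31.3, 32.0 and 35.8 CPM in trained vehicle fat, then 42.2, 31.5 and 27.9 CPM in sedentary and 43.0, 60.2 and 57.4 CPM in trained knockout fat. Both steps were free of overlap in opposite directions, and the related Cxcl10 had 1.31 (SE 0.58). The count of 4 was 1 without trained vehicle 1 and 2 without trained vehicle 2, sedentary vehicle 2 or trained knockout 2.

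Of 37 matrix genes tested, 7 were negative (18.9%, against 11% of all genes) and 0 positive, with a median of -0.31. The median was -0.13 without sedentary knockout 3 and -0.16 without sedentary vehicle 2 or trained knockout 2. Thbs1, a matricellular protein that activates TGF-beta, was 48.5, 25.2 and 38.5 CPM in sedentary and 52.4, 48.4 and 25.5 CPM in trained vehicle fat, then 185, 179 and 411 CPM in sedentary and 76.3, 25.4 and 35.8 CPM in trained knockout fat. Sedentary knockout fat alone stood high and the vehicle groups overlapped, for an interaction of -2.67 (SE 0.65). Thbs2 at -0.95 (SE 0.33) and Col12a1 at -1.81 (SE 0.57) shared that layout, whereas fibrillar Col1a1 had -0.75 (SE 0.38) and Col3a1 0.29 (SE 0.31). Without sedentary vehicle 2, trained vehicle 2 or trained knockout 2 the count was 4, and without trained knockout 1 it was 11. Among proliferation genes (median -0.35), Top2a had -0.80 (SE 0.36) and the helicase subunit Mcm7 0.44 (SE 0.10). Of the 24 tested, 5 were negative (20.8%) and 1 positive (4.17%), against 11% and 7.42% of all genes. That count was 1 without sedentary knockout 3, 2 without sedentary vehicle 3, trained vehicle 1 or trained knockout 2 or 3, and 3 without sedentary vehicle 1, and the median ran from -0.49 to -0.21, the latter without trained knockout 3.

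The remaining lists are given as counts at an unadjusted p under 0.05, against 7.42% positive and 11% negative of all genes. Their shares ran from 0% to 22.2% positive (nerve) and from 0% to 20% negative (glucocorticoid-responsive). Immediate early genes had 0 of 24 positive and 3 negative, with Dusp1, a phosphatase of MAP kinases, at -0.74 (SE 0.20). Endoplasmic reticulum stress genes had 2 of 24 positive, led by Xbp1 at 0.54 (SE 0.15), and 4 negative, and glucocorticoid-responsive genes 3 of 20 positive and 4 negative. The 4 stress genes became 1 without trained knockout 3, 2 without 5 other libraries and 6 without sedentary knockout 2. The glucocorticoid counts ran from 1 to 5 positive and from 2 (without sedentary knockout 1 or trained knockout 3) to 4 negative. Exercise-linked secreted factors had 1 of 17 positive, Nrg4 at 1.02 (SE 0.29), and 3 negative, led by the activin chain Inhbb at -0.53 (SE 0.15). Fibro-adipogenic stroma had 1 of 21 positive and 3 negative, and Anxa3 led at -0.81 (SE 0.22). Ribosomal protein genes had 0 of 36 positive and 4 negative with a median of -0.12, and the 4 became 0 in 7 of the 12 fits without a library, 1 or 2 without trained vehicle 2 or sedentary knockout 2, 9 without sedentary vehicle 2 and 11 without trained knockout 1. RLE factors gave 0 and DESeq2 1. MHC class II presentation had 0 of 15 positive and 2 negative, heat shock 1 of 21 positive and 1 negative (7 negative without sedentary knockout 2), lymph node stroma 1 of 8 each way, neutrophil and mast cell 0 of 12, skeletal muscle fibre 0 of 11, mammary epithelium 0 of 9, epidermis 0 of 6, erythroid 0 of 7, nerve 2 positive and 1 negative of 9, and mesothelium 1 negative of 10. Hepatocyte genes had a median of 3.53 that became -1.47 without trained knockout 2, the library with liver transcripts, and 1.04 by limma voom. The 1 of 20 below 0.05 was Cyp2e1, at 1.85 (SE 0.45), which fat also expresses: it stood at 3850 to 4670 CPM in sedentary vehicle and 1060 to 1780 CPM in sedentary knockout fat, against 1930 to 4090 and 2180 to 4650 CPM in the trained groups. Its interaction stayed between 1.42 and 2.15 over the alternatives, that library's removal included.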

How the data were processed

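Per the labels, total RNA of white fat was isolated by Trizol and an RNEasy kit and made into libraries with an Illumina kit. The submitters' processing notes name STAR 2.7.8a, Partek, mm10 and GRCm39 without stating their roles. The labels call the deposited values CPM, but the deposited fat table holds expected counts: estimated reads per transcript, not scaled between libraries, whose coordinates match GRCm39. Its 33649 transcript rows were summed over 17780 gene symbols and rounded. No source used here says whether reads were counted by strand, so overlapping genes and near-identical copies are uncertain.

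In R 4.3.3, edgeR 4.0.16 scaled the 12 libraries by TMM, dropped low genes with filterByExpr and fitted 1 mean per group. The interaction contrast had a quasi-likelihood test, with Benjamini-Hochberg adjustment over all genes tested. The SE is the size of the log2 value divided by the square root of F. The method was tested on simulated data. Alternatives were DESeq2 1.42.0, limma 3.58.1 voom, RLE factors, other filters, robust dispersion, a replicate block, the row with the most reads per symbol, and leaving out libraries.

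The gene lists, 35 in number, and the comparison were chosen with earlier results of these data known. Genes were named by rank, the 12 per direction with the smallest p at a mean of 2 CPM or more in a group and without clone or predicted names, since no gene was called. Also named were the member of each list with the smallest p, and Arntl. Other list members named were chosen after their values were seen. A few genes picked by these rules are left out of the text. Promoters came from RefSeq.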

Additional observations from a re-analysis of the deposited data

How the results depend on the processing

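The count of 0 called genes, and of 0 reversed genes among them, was the same with RLE factors, no filter on low counts, limma voom and the row with the most reads per symbol. DESeq2 called 724 genes, 688 with training estimates of opposite sign. A filter at a mean of 2 CPM called 3 (Tmem132a, Lyve1 and Rassf3; 3 reversed) and robust dispersion 2 (Tmem132a and Lyve1; 2 reversed). Leaving out each library in turn gave 0 to 472 called genes and 0 to 468 reversed ones. The 472 arose without trained knockout replicate 1, and 1 gene, Lyve1, was called without sedentary knockout replicate 1. The cause of these differences was not tested. Leaving out trained vehicle 1 and trained knockout 2 together, chosen after the data were seen, gave 0, with 1846 genes at an unadjusted p under 0.05. With the replicate number as a replicate block the count was 0, with 2747 genes at an unadjusted p under 0.05. Of 18 same-numbered pairs of libraries, 5 correlated above 0.1 (range -0.5 to 0.44), and 3 of 12 libraries correlated best with their own number. Whether replicate numbers pair the libraries cannot be decided from these few values. No library reached 50 CPM together with 5 or 10 times the median sum of a list of another cell type, so those 2 planned exclusions gave no value, the hepatocyte sum being carried by Hp, Trf and Cyp2e1, at 7380 to 16400 CPM. Of the 1193 values of named genes under these settings, 1101 kept their direction and side of the threshold, 90 kept their direction and passed it, and 2 reversed: Slc4a1, at 0.11 without trained vehicle replicate 1 (from -3.08 to 0.11 over the libraries left out), and Arntl, at 0.65 with the row with the most reads. The common biological coefficient of variation was 21.6%, and genes of few reads at this depth, such as Arntl with an SE of 0.47, carry wide errors.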
